A study of Homo sapiens with 10 samples.

Results

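Lysosomal genes code for the enzymes, membrane proteins and proton pump of the lysosome, the acidic compartment in which cells break down proteins, lipids and glycans. The members were a list of 38 named genes, drawn up with earlier results of these data known, and 37 of them were analysed among the 12373 genes of the count matrix. MAN2B1, a lysosomal mannosidase, was not analysed here. By role, the 37 members comprised 10 glycosidases and sulfatases, 5 lipid hydrolases and their activators, 10 proteases and the granulin precursor, 8 membrane proteins and sterol carriers, 3 proton pump subunits and the transcription factor TFEB.

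The counts came from Kuramochi, a human ovarian cancer cell line that the labels describe as epithelial and BRCA2-mutant. Olaparib inhibits PARP enzymes, on which cells with defective BRCA2 depend for DNA repair. Untreated cells (C) were compared with 9 adapted populations from a single dose escalation, kept in olaparib at 1, 2.5, 5, 10, 20, 40, 80, 160 or 320 µM until confluent and named T1, T2.5, T5, T10, T20, T40, T80, T160 and T320. All 10 populations share the line, its BRCA2 mutation and its medium, and each was profiled as 1 inDrop library, a droplet method that counts unique molecular identifiers (UMIs) per gene and cell. The populations descend from 1 line in series and are not independent cultures, so every difference between populations is also a difference between libraries.

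The libraries held 1976069 UMIs (T5) to 9343704 UMIs (C) from 726 (T5) to 2645 (T160) cells. Mitochondrial genes took 11.5% of the UMIs in C and 7.08% to 9.31% in the treated populations. Of 17195 distinct cell barcodes, 970 (5.64%) occurred in 2 or more libraries. Of the 12 fixed markers of epithelial and serous ovarian carcinoma cells, 11 were analysed. Their summed level was 2541 CPM (UMIs of a gene scaled to the library total) in C, 2663 in T2.5 and 604 in T320. Much of it came from KRT8, at 1027 CPM in C and 219 in T320, and KRT18, at 533 and 153. The list did not move together. KRT19 was highest in T20 (72.9 CPM) and MECOM in T1 (71.9), and EPCAM was listed at 0 in C and T320. The lineage factor PAX8 was between 151 and 544 CPM in every population. WT1, another factor of this lineage, was listed at 0 in T160 and T320. Within a library, a gene was either listed at 0 or had UMIs in about 1% of the cells or more, so a value of 0 is not a measured absence.

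As background, most lysosomal hydrolases are made in the endoplasmic reticulum, tagged with mannose 6-phosphate in the Golgi and carried to the lysosome by receptors for that tag. The V-ATPase pump acidifies the lumen in which they work. TFEB and its relatives in the MiT family bind a stretch of bases known as the CLEAR element in promoters of many lysosomal genes. TFEB itself is held in the cytoplasm when mTORC1 is active on the lysosome's surface, so the amount of its transcript need not follow its activity. Beta-galactosidase, made from GLB1, is also the enzyme that is stained as a marker of senescent cells.

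The CLEAR element is a palindrome built around CACGTG, and the promoter stretches that hold it show how the members differ at this site. The RefSeq table (build GRCh38.p14, 250 bases before to 50 after each start site) held 39 promoter windows for 26 of the 37 members. HEXA, ARSA, MANBA, NAGLU, ASAH1, PSAP, CTSB, CTSK, LGMN, LAMP2 and ATP6V1H had no entry. The searched motifs were CACGTG, the longer TCACGTGA and the latter with G before and C after it, each of which reads the same on both strands. The longest form occurred for 2 of the 26 members (GAA and MCOLN1, 7.69%) and for 0.421% of all genes in the table. TCACGTGA occurred for 5 members (19.2%), namely GAA, CTSA, LAMP1, MCOLN1 and ATP6V0D1, and for 1.18% of all genes in the table. CACGTG occurred for 9 (34.6%), the same 5 with ARSB, NEU1, CTSD and CD63, and for 8.77% of all genes in the table. The table also holds genes not tested here, and the motifs were more frequent among tested genes with an entry. Of these, 1163 held CACGTG and 7841 did not, 212 held TCACGTGA and 8792 did not, and 82 held the longest form and 8922 did not. A match is a description of the letters and not a binding site. The stretches below are 5′ to 3′ on the gene's strand, with CACGTG in capitals. LAMP1 is shown at length because it holds 5 copies in this stretch, MCOLN1 and CTSA because they hold 2, and ATP6V0D1 and CTSD as single copies with different flanks. GAA also holds 2 copies in its window, and the stretch shows the one farther from the start site. They lie at chr13:113297039-113297233 (LAMP1, plus strand), chr19:7522564-7522623 (MCOLN1, plus), chr20:45891287-45891316 (CTSA, plus), chr17:80101493-80101522 (GAA, plus), chr16:67481199-67481228 (ATP6V0D1, minus) and chr11:1763957-1763986 (CTSD, minus).
LAMP1: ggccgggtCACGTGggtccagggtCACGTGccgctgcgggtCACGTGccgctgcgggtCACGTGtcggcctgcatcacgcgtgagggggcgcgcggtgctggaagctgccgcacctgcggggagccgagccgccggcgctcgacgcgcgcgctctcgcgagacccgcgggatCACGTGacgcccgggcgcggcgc
MCOLN1: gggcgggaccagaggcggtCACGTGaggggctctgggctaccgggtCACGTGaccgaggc
CTSA: gactgtCACGTGgcgccggagttCACGTGa
GAA: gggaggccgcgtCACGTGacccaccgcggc
ATP6V0D1: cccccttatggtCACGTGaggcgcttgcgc
CTSD: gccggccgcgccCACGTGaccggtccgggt

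Along the escalation, 6 members rose and 3 fell. The risers were 5 glycosidases and sulfatases (HEXA, GLB1, GUSB, ARSA and MANBA) and the membrane protein CD68, and the fallers were the protease CTSB, the membrane protein LAMP1 and the pump subunit ATP6V0D1. The test was a quasi-likelihood F-test in edgeR, applied to the slope for each step of the escalation (0 to 9), with p-values adjusted over all 11387 tested genes and a threshold of 0.05. Among all tested genes 8.03% rose and 8.99% fell, against 16.2% and 8.11% of the members. By role, 5 of 10 glycosidases and sulfatases rose and 0 fell, 0 of 5 lipid hydrolases passed in either direction, 1 of 10 proteases fell, 1 of 8 membrane proteins rose and 1 fell, 1 of 3 pump subunits fell, and TFEB did not pass. Slopes were above 0 for 25 of the 37 members, with a median of 0.053 log2 per step, while the median of all tested genes was -0.0011. The p-values measure scatter about a line over 10 linked libraries. In GENCODE on GRCh38, the genes that rose span chr15:72340919-72376476 (HEXA), chr3:32996608-33097230 (GLB1), chr7:65960684-65982314 (GUSB), chr22:50622754-50628173 (ARSA), chr4:102630770-102760994 (MANBA) and chr17:7579467-7582113 (CD68), each on another chromosome. LAMP1 spans chr13:113297241-113323672 and ATP6V0D1 chr16:67438014-67481237. The number of members that rose was 6, and 3 when 9 members sharing sequence with other genes were left out. HEXA, GUSB and CD68 were among those left out, so that run does not test their calls. The number that fell was 3, and 1 without T2.5 and 0 without T160, without T320 or over C to T80. Shares of all tested genes in these runs are not given here.

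**Figure D1:**
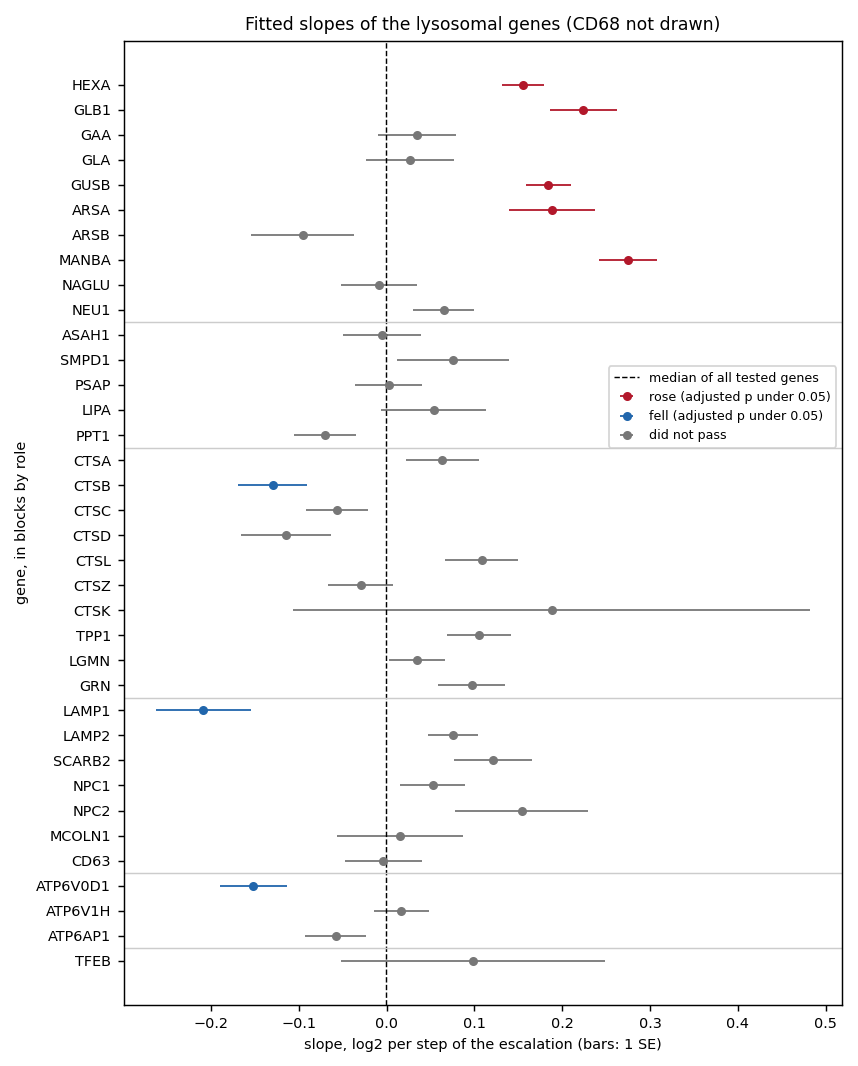
Fitted slope of each lysosomal gene in log2 per step of the escalation (x axis; bars, 1 standard error), in blocks by role. Red points rose, blue points fell and grey points did not pass the adjusted threshold of 0.05; the dashed line is the median of all 11387 tested genes, and CD68 (slope 1.5) is off the scale and not drawn.

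The glycosidases that rose remove sugars from glycolipids and glycoproteins. From C to T320 in the order of dose, HEXA, the alpha subunit of the hexosaminidase that degrades GM2 ganglioside, stood at 21.8, 35.2, 33.6, 38, 40.8, 41.4, 47.7, 55.2, 72.3 and 83.5 CPM. It was higher than in the step before at 8 of the 9 steps, and all treated populations were above C. The slope was 0.16 log2 per step (SE 0.024, adjusted p = 0.00266 by edgeR), and T320 stood 3.82-fold above C (95% counting interval 3.16 to 4.64, counting error only, as for all intervals here). GUSB, the beta-glucuronidase of glycosaminoglycan breakdown, stood at 16.7, 23.4, 25, 24.8, 34.9, 42.8, 47.5, 47.2, 57.8 and 61.6 CPM. Like HEXA it climbed over the whole range of doses, with a slope of 0.18 (SE 0.026, adjusted p = 0.00178 by edgeR) and a 3.69-fold difference (2.95 to 4.61). Both calls held under each alternative run, 17 for each gene. HEXA shares 36.0% of the 31-base words of its last 500 transcript bases with AC009690.1, and GUSB 11.5% with the copy GUSBP2, so reads could be split between these genes.

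GLB1 and MANBA had most of their rise at the highest doses. GLB1, the lysosomal beta-galactosidase, stood at 10.2, 26.0, 17.9, 22.3, 30.6, 32.4, 28.1, 32.3, 60.6 and 84.6 CPM. Its levels from T10 to T80 lay between 28.1 and 32.4, and those of T160 and T320 were above all others. The slope was 0.22 (SE 0.038, adjusted p = 0.00431 by edgeR), T320 was 8.32-fold above C (6.53 to 10.7), and over C to T80 alone the adjusted p was 0.0943. MANBA, the beta-mannosidase that cleaves the last mannose of N-glycans, stood at 9.53, 13.7, 10.6, 19.7, 22.1, 17.9, 27.7, 31.9, 65.6 and 59.1 CPM. T160 and T320 again stood apart from the rest. Its slope was 0.28 (SE 0.033, adjusted p = 0.00124 by edgeR), with a 6.20-fold difference from C to T320 (4.77 to 8.12), and it passed in all 18 alternatives run. ARSA, the sulfatase that degrades sulfatide in myelin and other membranes, was low throughout, at 3.42, 9.37, 12.5, 7.08, 10.7, 10.3, 10.9, 14.8, 21.6 and 24.4 CPM. It was lowest in C (32 UMIs) and highest in T320 (69 UMIs), a 7.13-fold difference (4.62 to 11.2). The slope of 0.19 (SE 0.049, adjusted p = 0.0226 by edgeR) lost its call without C (adjusted p = 0.0501), without T160 (0.0584), without T320 (0.0853) and over C to T80 (0.245). GLB1, MANBA and ARSA shared no 31-base words with other genes by this measure.

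The other members of the group did not pass. NEU1, the sialidase that trims sialic acid and the group's most counted member, was at 52.9, 61.6, 85.4, 63.3, 52.2, 102, 79.6, 66.3, 91.0 and 116 CPM. It had no steady order by dose, with high values in T20 and T320 (slope 0.07, SE 0.035, adjusted p = 0.219 by edgeR). The acid alpha-glucosidase GAA lay between 12.5 and 30.8 CPM, the alpha-galactosidase GLA between 6.64 and 22.3, the arylsulfatase ARSB between 7.61 and 23.0 and NAGLU, an enzyme of heparan sulfate breakdown, between 15.1 and 37.1. Summed over the 10 genes, the group took 0.0172% of the UMIs in C, 0.0259% in T10, 0.0304% in T80, 0.0458% in T160 and 0.0523% in T320. That sum was lowest in C and highest in T320.

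**Figure D2:**
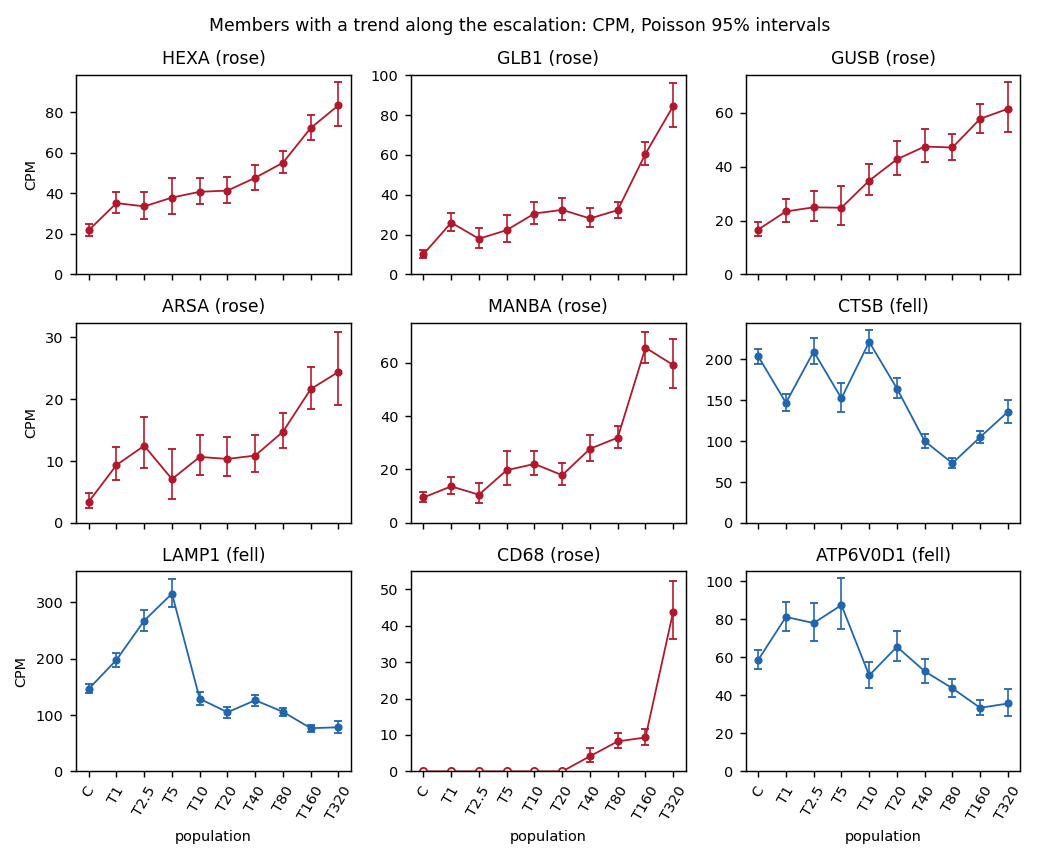
CPM (y axis, linear, from 0) of the 9 lysosomal genes with a trend, in each population in the order of dose (x axis); bars are exact Poisson 95% intervals of the counts, and open points mark libraries in which the gene was listed at 0. GLB1 and MANBA are highest in T160 and T320, LAMP1 is highest in T5 at 315 CPM, and CD68 reaches 43.9 CPM in T320.

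Among lipid hydrolases and their activators, none of the 5 members passed in either direction. PSAP, the precursor of the saposins that present sphingolipids to their hydrolases, had the most UMIs of all members. Its levels were 599, 717, 837, 1057, 522, 611, 583, 610.0, 858 and 1010.2 CPM, high in T5 and again in T320 with lower values from T10 to T80. T5 stood 2.03-fold above T10 (1.91 to 2.15), a change that a straight line cannot hold (slope 0.0026, adjusted p = 0.972 by edgeR). The sign of that slope changed without C, T10, T160 or T320 and over C to T80. The acid ceramidase ASAH1 ranged from 30.5 CPM in C to 75.4 in T5. LIPA, the acid lipase of cholesteryl esters, ranged from 14.4 in T1 to 55.2 in T20, and the sphingomyelinase SMPD1 from 6.17 to 17.9. PPT1, which removes palmitate from proteins, was the only member with its highest level in C, at 72.1 CPM, and ranged down to 37.0 in T10.

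Of the 9 cathepsin-type and related proteases and the granulin precursor GRN, only CTSB had a trend. Cathepsin B, a cysteine protease, stood at 204, 147, 209.5, 152, 221, 164, 100.0, 73.0, 105 and 136 CPM. Its values up to T20 overlapped widely, and those from T40 on were all lower than any before. The level in T10 was 3.03 times that in T80 (2.73 to 3.38). The slope was -0.13 (SE 0.039, adjusted p = 0.0412 by edgeR), a narrow pass. CTSB shares 24.5% of its terminal 31-base words with other genes. It was itself left out of the run without such genes, in which 2 members fell, so that run does not test its call. Adjusted p-values rose to between 0.0550 and 0.101 without C, T2.5, T5, T40, T80, T160 or T320, to 0.108 with scaling by library size alone, to 0.122 over C to T80 and to 0.0572 in the cells listed with a State.

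GRN, a secreted growth factor precursor that is cut into granulins in the lysosome, was lowest in C and high in all treated populations. It stood at 195, 394, 413, 532, 581, 508, 509, 494, 655 and 604 CPM. The difference was already 2.02-fold at T1 (1.90 to 2.16) and reached 3.36-fold at T160 (3.19 to 3.55), with a slope of 0.10 that did not pass (SE 0.038, adjusted p = 0.104 by edgeR; 0.0329 with DESeq2). TPP1, a tripeptidyl peptidase, was at 39.1, 45.1, 62.7, 57.7, 55.7, 35.3, 71.3, 84.3, 69.0 and 109 CPM, highest in T320 (slope 0.10, SE 0.037, adjusted p = 0.0698 by edgeR). CTSA, a carboxypeptidase that also protects GLB1 and NEU1 in a complex, was at 50.7, 66.1, 74.5, 103, 53.8, 111, 70.5, 86.1, 75.5 and 126 CPM. It had separate high values in T5, T20 and T320 and did not pass (adjusted p = 0.318). The aspartic protease cathepsin D (CTSD) ran from 90.9 CPM in T160 to 278 in T2.5 and had almost the same level in C (148) and T320 (149). CTSL ran from 30.2 to 78.4, CTSC from 98.5 to 192, LGMN from 34.0 to 69.4 and CTSZ from 17.7 to 30.6. CTSK, best known as the collagenase of osteoclasts, was listed at 0 in 7 of the 10 libraries and at no more than 7.61 CPM in the others.

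The membrane proteins and sterol carriers did not share a single course. LAMP1, an abundant glycoprotein of the limiting membrane, stood at 146, 198, 267, 315, 129, 105, 126, 106, 76.6 and 78.2 CPM. It was higher than in C in T1, T2.5 and T5 and lower than in C in the 6 populations from T10 on. T5 was 2.15-fold above C (1.96 to 2.37) and 4.12-fold above T160 (3.67 to 4.62). Its slope was -0.21 (SE 0.054, adjusted p = 0.0220 by edgeR) and lost the call without T2.5 (adjusted p = 0.0563), without T160 (0.0636), without T320 (0.0835) and over C to T80 (0.236). LAMP2, its relative in the same membrane and a receptor of chaperone-mediated autophagy, went from 94.6 CPM in C to 187 in T160 without passing (slope 0.08, SE 0.028, adjusted p = 0.0882 by edgeR).

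SCARB2, which carries glucocerebrosidase to the lysosome, and NPC2, a soluble protein that hands cholesterol to NPC1, were both high from the first dose. SCARB2 stood at 40.2, 124, 103, 103, 123, 82.8, 137, 151, 194 and 159.9 CPM. Every treated population was above C, by 3.07-fold at T1 (2.70 to 3.5) and 4.82-fold at T160 (4.30 to 5.41), while the slope of 0.12 did not pass (SE 0.044, adjusted p = 0.0803 by edgeR). NPC2 stood at 148, 310.4, 359, 447, 868, 424, 863, 811, 535 and 418 CPM. It was 5.88-fold above C in T10 (5.53 to 6.26), with T20 well below its neighbours, and its slope of 0.15 did not pass (SE 0.075, adjusted p = 0.182 by edgeR). The membrane partner NPC1 stayed between 10.6 and 26.4 CPM. MCOLN1, the calcium channel of the lysosome, lay between 4.05 and 13.8 CPM, and 29.8% of its terminal 31-base words occur in AC008878.2.

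CD63, a tetraspanin of late endosomes and exosomes, stood at 493, 575, 711, 754, 515, 840.5, 833, 740.2, 542 and 533 CPM. It was high in T2.5, T5 and from T20 to T80, with T320 close to C (1.08-fold, 1.02 to 1.15) and a slope of -0.0036 whose sign changed with scaling by library size. CD68, a heavily glycosylated lysosomal protein used as a macrophage marker, was listed at 0 from C to T20. T40 had 4.16 CPM, T80 had 8.24, T160 had 9.31 and T320 had 43.9. T320 stood 4.71-fold above T160 (3.49 to 6.4), on 124 and 71 UMIs. The slope of 1.5 (SE 0.197, adjusted p = 0.00142 by edgeR) passed in the 15 alternatives run for CD68, where MANBA had 18. Both the call and the size of the slope depend on the listing at 0, which these alternatives share. In T40, only 1.01% of the unthinned cells had a CD68 UMI, near the level under which genes were listed at 0. After each cell was thinned to 1000 UMIs, 3.67% of T320 cells (2.63% to 4.96%) had a CD68 UMI. CD68 shares 81.1% of its terminal 31-base words with the overlapping AC016876.2, so the 2 cannot be told apart. Of 13 leukocyte markers fixed for comparison (among them PTPRC, CD14 and TYROBP), 0 were analysed here, so the levels of that cell type were not tested beside CD68.

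The pump subunits did not move together. ATP6V0D1, a subunit of the membrane sector that links it to the stalk, stood at 58.6, 81.3, 78.1, 87.5, 50.5, 65.6, 52.7, 43.7, 33.4 and 35.7 CPM. It was highest in T5, at 2.62 times the level in T160 (2.15 to 3.19), and lowest in T160 and T320. The slope was -0.15 (SE 0.038, adjusted p = 0.0202 by edgeR), and the call was lost without T160 (0.0599), without T320 (0.0824) and over C to T80 (0.256). ATP6AP1, an accessory subunit, stood at 91.9, 79.8, 128, 138, 74.7, 85.6, 88.9, 77.3, 93.9 and 80.0 CPM, with T2.5 and T5 above the rest (slope -0.06, adjusted p = 0.274 by edgeR). ATP6V1H, a regulatory subunit of the catalytic sector, lay between 56.6 and 89.9 CPM. TFEB was near the lower limit of these libraries, at 5.14, 0, 9.60, 3.54, 4.98, 4.23, 5.15, 6.78, 7.35 and 9.55 CPM. Its slope of 0.10 had an SE of 0.150 (adjusted p = 0.692 by edgeR), so neither a rise nor a fall could be told at 284 UMIs in all.

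Set beside the promoter stretches above, the 5 members with TCACGTGA in a window included 0 that rose and 2 that fell, LAMP1 and ATP6V0D1. GAA, CTSA and MCOLN1 did not pass. Of the 6 members that rose, GLB1, GUSB and CD68 had an entry in the table and none of the 3 held CACGTG. The other risers, HEXA, ARSA and MANBA, had no entry. As background, 1163 tested genes held CACGTG, of which 7.57% rose, and 7841 did not, of which 8.11% rose. Among all tested genes with an entry, 6.6% of those with TCACGTGA rose and 12.7% fell, against 8.08% and 9.14% of those without. The members are few and were not tested as a group.

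**Figure D3:**
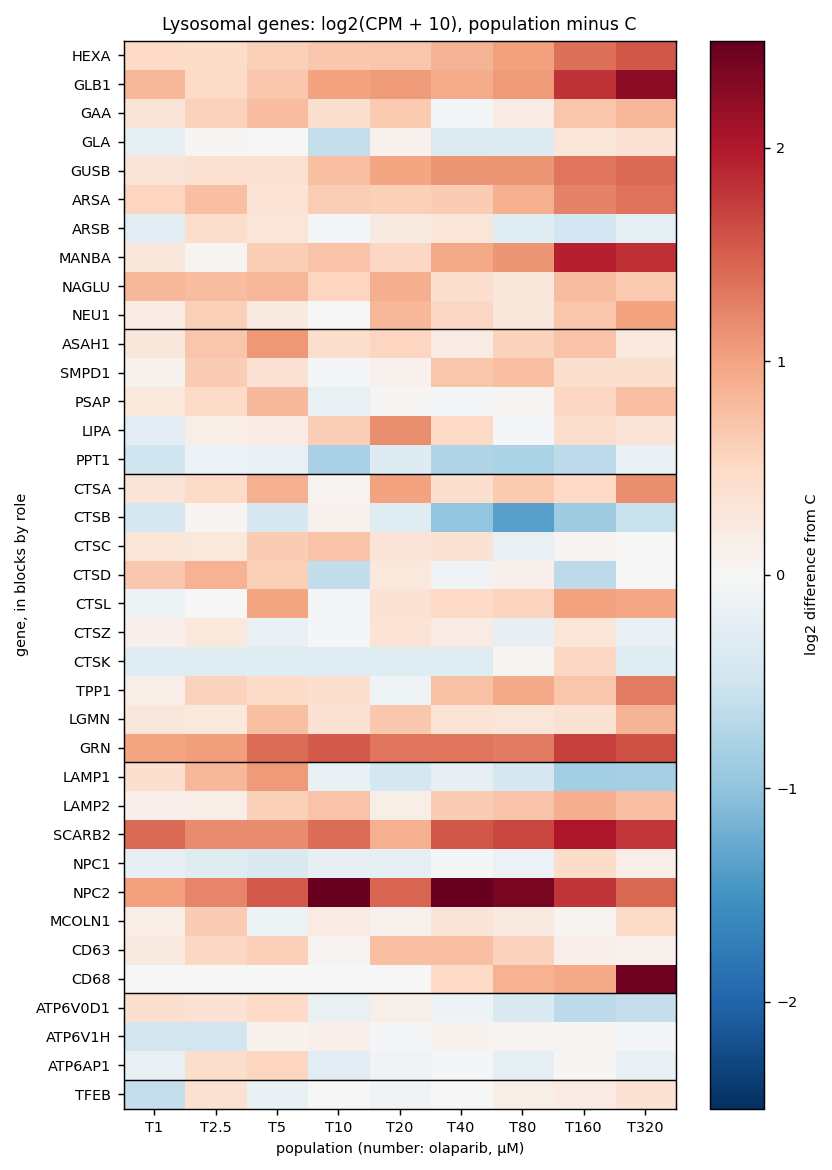
Difference of log2(CPM + 10) from C (colour, log2 scale) for each of the 37 lysosomal genes (rows, in blocks by role) in the 9 treated populations (columns, by olaparib dose). NPC2, SCARB2 and GRN are higher in every treated population; LAMP1 turns from higher in T1 to T5 to lower from T10 on; HEXA, GLB1, GUSB, ARSA and MANBA are highest in T160 and T320.

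For a direct comparison with the untreated cells, each treated population was set against C as a difference of log2(CPM + 10). There is 1 library on each side and so no test, and all 9 comparisons share C. A gene counted as measured with at least 100 UMIs in all and at least 50 CPM in 1 of the 2 populations, and as higher or lower at a difference of 1 or more. In T320, 23 of the 37 members were measured, 9 were higher and 0 were lower, where 15.4% of all measured genes were higher and 11.6% lower. The 9 were HEXA, GLB1, GUSB, MANBA, CTSA, TPP1, GRN, SCARB2 and NPC2. Of these, 6 were under 50 CPM in C and counted as measured through T320 alone, so the count favours higher genes. Over all 37 members without that filter, by library size, 27 differences were above 0 and the median was 0.48. The same values for all genes without the filter are not given here, so these have no background beside them. The largest differences among the measured members in T320 were 2.23 for GLB1, 1.82 for MANBA and 1.76 for SCARB2. The median difference of all measured genes was 0.12 here and -0.22 with TMM scaling. Under TMM, 8 members were higher, with CTSA at 0.91, and 1 was lower, LAMP1 at -1.08, and the shares of all measured genes turned to 9.17% higher and 18.6% lower.

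At the other doses the members that passed a difference of 1 were fewer. Beside each count stands the background, which is the share of all measured genes in the same direction. In T1, 2 of 16 were higher (background 7.57%), SCARB2 and NPC2, and 0 lower (4.83%). T2.5 had 3 of 18 higher (4.55%), the same with GRN, and 0 lower (2.37%). In T5, 5 of 20 were higher (7.87%), with ASAH1 and LAMP1 added to these 3, and 0 lower (4.72%). GRN, SCARB2 and NPC2 made up the higher members of T10, 3 of 17 (13.0%) with 0 lower (7.17%), and of T40, 3 of 18 (8.88%) with 0 lower (8.76%). T20 had LIPA, GRN and NPC2 as 3 of 18 (6.67%) and 0 lower (7.29%). HEXA joined GRN, SCARB2 and NPC2 in T80, where 4 of 20 were higher (9.25%) and CTSB was the 1 that was lower (13.0%). T160 had 8 of 23 higher (13.4%) and 0 lower (11%), and the higher ones were HEXA, GLB1, GUSB, MANBA, CTSL, GRN, SCARB2 and NPC2. Of these 8, 6 were under 50 CPM in C and counted as measured through T160 alone. The same limit held for 2 of the higher members in T5 (ASAH1 and SCARB2) and 2 in T80 (HEXA and SCARB2). It held for 1 at each other dose below T160, so the counts at these doses favour higher genes too. With TMM scaling, T160 had 7 higher (7.86% of all measured genes) and 2 lower (16.6%), CTSB at -1.15 and LAMP1 at -1.10. CTSB was also the 1 lower member with TMM in T40 (10.8%) and in T80 (12.7%). NPC2 was above 1 at every dose by library size, with differences from 1.02 in T1 to 2.48 in T10, while with TMM it stood at 0.98 in T1 and above 1 at the other doses. TMM left 1 higher member in T1 (SCARB2, against 7.01% of all measured genes) and 2 in T2.5 (SCARB2 and NPC2, against 3.79%). It left 3 in T5 (GRN, SCARB2 and NPC2, against 6.65%) and gave 5 in T80 (against 9.55%), with GUSB added. GRN missed in T1 by a small margin, at 0.98, and SCARB2 in T20, at 0.88. By the population in which a member was highest, 18 of the 37 peaked in T160 or T320, 9 in T1, T2.5 or T5, 9 between T10 and T80 and 1 in C. These are 48.6%, 24.3%, 24.3% and 2.70% of the members, where 35.4%, 23.6%, 29.5% and 11.6% of all tested genes peaked.

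As a sum, the 37 members took more of the UMIs in every treated population than in C. From C to T320 in the order of dose, the share was 0.292%, 0.376%, 0.440%, 0.502%, 0.424%, 0.422%, 0.455%, 0.437%, 0.453% and 0.471%. It was highest in T5, and T320 was 1.61 times C (1.58 to 1.64), or 1.53 times with mitochondrial genes left out of the totals. PSAP, CD63, NPC2 and GRN supplied 56.3% of these UMIs. Without those 4, the share was still lowest in C (0.149%), at 0.223% in T5 and 0.214% in T320. From T10 to T80 it lay closer to C, between 0.171% (T80) and 0.183% (T20). The 4 themselves took 0.143% in C and between 0.238% (T20) and 0.279% (T40) from T10 to T80. Roles differed in their course. Membrane proteins and sterol carriers went from 0.0944% in C to 0.214% in T40 and stood at 0.143% in T320, proteases and GRN went from 0.0842% to 0.140%, and the pump subunits were at 0.0232% in C and 0.0195% in T320. Per cell, thinned to 1000 UMIs with shallower cells left out (10 in T80 to 614 in T2.5), the mean was 2.91 member UMIs in C, 4.88 in T5 and 4.68 in T320. The share of thinned cells with no member UMI was 6.96% in C and 1.01% in T320.

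**Figure D4:**
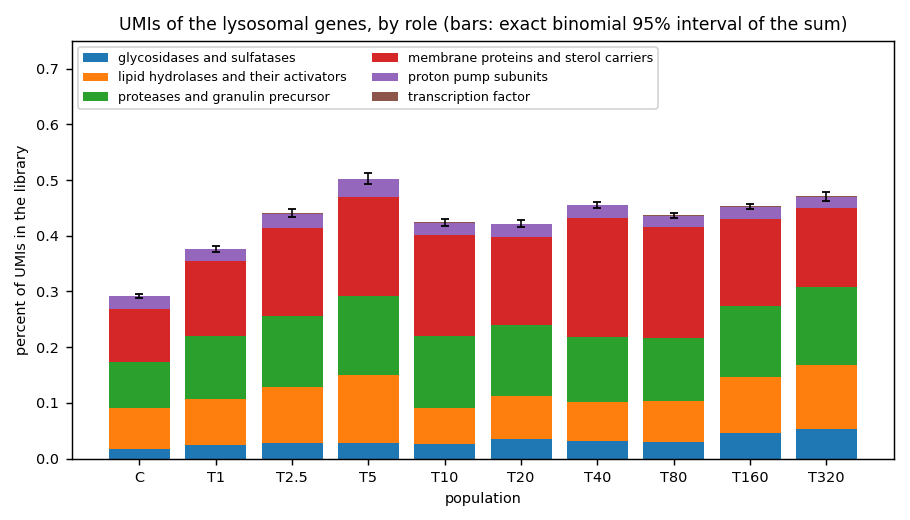
Percent of each library's UMIs that came from the lysosomal genes (y axis, from 0), stacked by role, for the 10 populations (x axis); the bar on each column is the exact binomial 95% interval of the sum. C is lowest at 0.292% and T5 highest at 0.502%.

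In the same UMIs, the rises appeared as a larger share of cells with a UMI at equal depth. Such shares come from the counts behind the CPM and are no separate support. In cells thinned to 1000 UMIs, GLB1 was found in 1.22% of C cells (0.722% to 1.92%) and 7.24% of T320 cells (5.77% to 8.94%). Unthinned, the shares were 4.99% and 14.6%. MANBA was found in 0.878% of C cells (0.469% to 1.5%) and 5.32% of T320 cells (4.06% to 6.82%) after thinning, and in 4.50% and 11.2% before. NPC2 went from 12.8% of thinned cells in C to 55.0% in T10, and from 38.9% to 70.6% without thinning. LAMP1 was found in 12.6% of thinned cells in C, 25.8% in T5 and 7.31% in T160, against 38.7%, 49.2% and 18.3% unthinned. These shares follow the order of the CPM, and a single cell line gives no cell type that lacks these genes, in which free RNA could be measured.

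The submitters' metadata gave a State, C or S1 to S5, for 8240 of the 18209 cells (45.3%). The sources used here do not say how those cells were chosen or the States assigned. If expression set the States, a contrast of States is no test, so values by State within 1 library are given as a description. CTSD, singled out here after its values were seen, was higher in S3 than in the other States of the same library. In T20 it stood at 505 CPM in the 149 S3 cells and 128 in the 417 S2 cells, 3.94-fold higher (3.25 to 4.79). In T10 the levels were 175 in S3 and 84.9 in S2, a 2.07-fold difference (1.48 to 2.86), and S4 had 119. In T40, S3 had 233 CPM and S4 132, and in T80 they had 222 and 152. The order of S3 above S2 or S4 was therefore the same in these 4 libraries.

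NPC2 was higher in S4 than in the other States of all 4 libraries that held S4. It stood at 1343 CPM in S4 and 808 in S2 of T10, and at 800 CPM in S4 and 375 in S2 of T20 (2.13-fold, 1.80 to 2.51). In T40 it stood at 915 in S4 and 472 in S3, and in T80 at 857 and 504. HEXA in T20 was at 101 CPM in S4 (25 UMIs) and 35.4 in S2. ASAH1 went the other way against S2, at 24.3 in S4 and 64.7 in S2 of T10 and at 20.2 (5 UMIs) and 64.1 in T20. It was also low in S3 of these libraries, at 28.2 (9 UMIs) in T10 and 31.6 in T20. In T40, ASAH1 stood at 41.9 in S4 and 47.0 in S3, and in T80 at 69.2 and 60.5. In the share of UMIs from all members, S4 was above S2 in T10 (0.546% and 0.450%) and T20 (0.531% and 0.441%) and above S3 in T40 (0.507% and 0.424%) and T80 (0.466% and 0.403%). S1 and S2, which share the T2.5 and T5 libraries, had 0.476% and 0.461% in T2.5 and 0.552% and 0.519% in T5.

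Few members passed a difference of 1 between States of a library, by the same rule as against C. In T2.5, 1 of 22 measured members was higher in S2 than in S1 (ARSB, background 2.93%) and 0 were lower (3.30%). ARSB stood at 15.4 CPM in S1 (22 UMIs) and 52.4 in S2 (18 UMIs), so it counted as measured through S2 alone. In T5 the counts were 0 higher (3.15%) and 0 lower (3.55%) of 21. Within T10, 0 of 17 were higher in S3 than in S2 (5.05%) and 0 lower (4.98%), while 0 of 20 were higher in S4 (4.35%) and 1 was lower (ASAH1; 5.19%). Within T20, S3 had 1 of 22 higher than S2 (CTSD, 5.54%) and 1 lower (PPT1, 5.72%). S4 had 2 of 21 higher than S2 (HEXA and NPC2, 5.66%) and 1 lower (ASAH1, 6.59%). HEXA counted as measured through S4 alone, and PPT1 and ASAH1 through S2 alone, each the State in which it was higher. S4 against S3 gave 0 of 19 higher (4.48%) and 0 lower (5.14%) in T40, and 0 of 18 higher (5.97%) and 0 lower (8.37%) in T80.

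**Figure D5:**
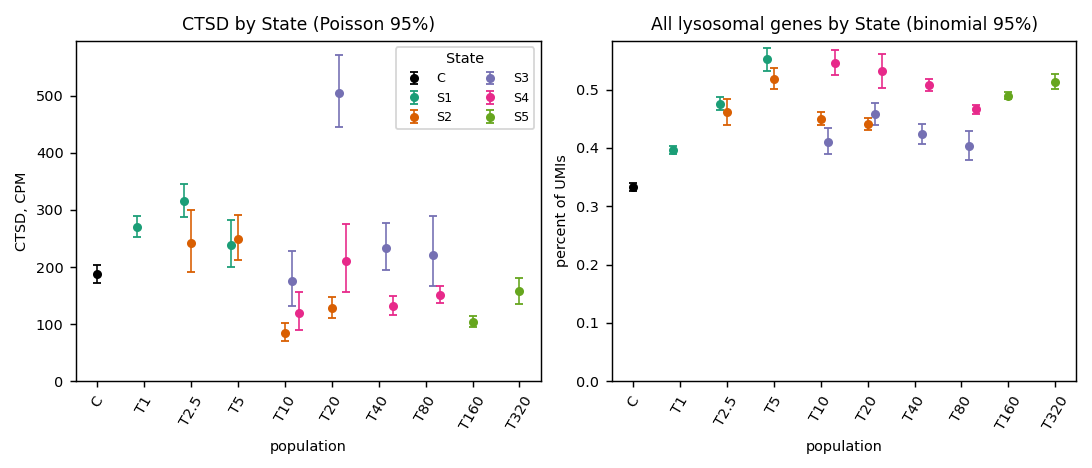
Left, CPM of CTSD in the listed cells of each State within each population, with Poisson 95% intervals; right, percent of UMIs from all 37 lysosomal genes in the same cells, with binomial 95% intervals; colours are the submitters' States. CTSD in S3 of T20 stands at 505 CPM, and S4 is above the other States of its library in the share of all lysosomal genes.

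A wider set of lysosomal and autophagy genes was set beside the members, 117 listed and 109 tested. In it 17 rose and 5 fell (15.6% and 4.59%, against 8.03% and 8.99% of all tested genes). Other hydrolases and activators had 4 of 24 that rose and 1 that fell. GM2A, the activator that presents GM2 ganglioside for hydrolysis, went from 16.5 CPM in C to 49.2 in T320 (slope 0.10, adjusted p = 0.0314 by edgeR). SGSH, a sulfamidase of heparan sulfate breakdown, went from 8.03 to 49.2 CPM (0.18, adjusted p = 0.0351) and PCYOX1, which degrades prenylated cysteines, from 71.8 to 167 (0.10, adjusted p = 0.0218). The acid phosphatase ACP2 fell (slope -0.11, adjusted p = 0.0340).

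Among the other pump subunits 1 of 13 rose and 1 fell. ATP6V0B, of the proton-conducting ring, was at 378 CPM in C, 113 in T10 and 166 in T320 (slope -0.18, adjusted p = 0.0116 by edgeR). ATP6V0E2 rose, but 92.8% of its terminal words occur in AC092681.3. Other lysosomal membrane proteins had 2 of 22 that rose, the cation channels TPCN1 (28.7 CPM in C, 113 in T320; adjusted p = 0.00602) and TMEM175 (5.67 and 29.7; adjusted p = 0.0124), and 1 that fell. The one that fell was LAPTM4B, at 1258 CPM in C and 389 in T320 (slope -0.14, adjusted p = 0.0286 by edgeR), with 11.3% of its words shared with IPP. In the sorting of lysosomal enzymes, 3 of 14 rose, and GGA2, an adaptor for the mannose 6-phosphate receptors, fell. GNPTG, a subunit of the enzyme that makes the mannose 6-phosphate tag, went from 21.6 to 57.7 CPM (adjusted p = 0.0212). VPS35 of the retromer, which returns receptors from endosomes, went from 141 to 334 CPM (adjusted p = 0.0143), and the adaptor GGA3 also rose (adjusted p = 0.0145).

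Of 14 genes that anchor mTORC1 at the lysosome or belong to the MiT family, 2 rose. RRAGD, a Rag GTPase, went from 11.9 CPM in C to 92.7 in T160 (7.81-fold, 6.38 to 9.62) and 60.2 in T320 (slope 0.28, adjusted p = 0.00142 by edgeR). MITF, a relative of TFEB, went from 7.17 to 36.4 CPM (0.16, adjusted p = 0.0227). In autophagy 5 of 22 rose and 1 fell. CALCOCO2, a receptor for cargo, went from 23.2 to 84.9 CPM (0.20, adjusted p = 0.00124), GABARAPL1, a ubiquitin-like protein of autophagosomes, from 11.7 to 49.2 (0.23, adjusted p = 0.00932), and BNIP3L, a receptor for mitochondria, from 25.3 to 121 (0.14, adjusted p = 0.0260). BNIP3 rose too, with 46.6% of its words shared with BNIP3P1, and ATG9A fell, with all of its words shared with AC068946.2.

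Other marker lists moved with dose as well. The summed level of 5 fibroblast genes (of 8 listed) was 69.7 CPM in C, 2273 in T5 and 144 in T320. COL3A1 led the sum in T5, at 1950 CPM. LAMP1, PSAP, ASAH1, ATP6V0D1 and ATP6AP1 were also highest in T5. The sum in T320 came from THY1 alone, which stood at 44.4 CPM in C, 95.6 in T5, 173 in T20 and 144 in T320. COL1A1, COL3A1, PDGFRA and PDGFRB were listed at 0 in T320. Markers of osteoclasts (3 of 7 analysed) summed to at most 15.5 CPM and those of endothelium (3 of 5) to at most 14.3. The part of these lists, of the falling sum of epithelial markers and of the higher mitochondrial share of C in the differences above was not tested.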

How the data were processed

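The deposited matrix holds UMI counts per gene and cell, and the deposited metadata table holds counts, a mitochondrial fraction and a State for part of the cells. The submitters' processing notes name hg38, GRCh38 and Seurat 2.3.2. Not given in the sources used here: aligner, counting tool, annotation and cell filters. Cells had 692 to 17644 UMIs. All were kept, and no doublet caller was run. Counts were summed per population (1 library each) and divided by library totals to CPM. Trends were fitted with edgeR 4.0.16 (TMM, genes with at least 100 UMIs, 8 residual degrees of freedom, Benjamini-Hochberg adjustment), with DESeq2 1.42.0 and limma 3.58.1 as alternatives, and the fit was tested on simulated data. Fold intervals are exact Poisson and shares exact binomial (Clopper-Pearson), all 95% and for counting error only. States were used with at least 50 listed cells in a library; 918 listed T40 cells were matched by barcode. Positions and transcript ends came from GENCODE 29, promoters from RefSeq. Members and lists were chosen with earlier results of these data known. Given in full are members with a trend, members higher or lower in T320, the most counted member of each role, and TFEB; companion genes are named where they had a trend, up to 4 in each direction per list. Part of what this rule selects is not reported here.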

Additional observations from a re-analysis of the deposited data

How the results depend on the processing

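With 1 library per population, depth limits the lowest members (TFEB, MCOLN1, CTSK), and a listing at 0 can hide a low level. No paired analysis was possible because each population has 1 library and the labels carry no replicate numbers. Of the 37 members, 6 rose, between 5 and 7 with each population left out in turn, and 11 with DESeq2. With sequence-sharing genes left out, HEXA, GUSB and CD68 among them, 3 rose (28 tested). The shares of all tested genes that rose or fell in these runs are not given here, so the counts have no background beside them. The number that fell was 3, between 0 and 3 with each population left out, and 0 over C to T80. HEXA, GUSB, MANBA and CD68 passed in each alternative run for them, although the runs for CD68 all share its listing at 0. Members higher in T320 numbered 9 and between 7 and 12 under the alternatives, and lower ones 0, or 1 with TMM and 1 with DESeq2 size factors. With DESeq2 size factors, 450 of the 4554 measured genes were higher in T320 and 790 were lower. Beyond TMM and DESeq2, the shares of all measured genes under the alternatives are not given here. The UMI share of T320 over C was 1.61, 1.54 in listed cells, 1.53 without mitochondrial genes and 1.59 without PSAP. Slopes that changed sign had not passed. PSAP had 0.0026, with -0.050 over C to T80 and -0.024 to 0.016 with each population left out. CD63 had -0.0036, with 0.013 by library size, 0.081 over C to T80, 0.0091 in listed cells and -0.029 to 0.031 with each population left out. The cause of these changes was not tested. Settings that leave some genes or populations out also have fewer of them, and the part of that was not tested either.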
